A study of Homo sapiens with 4 samples.

Results

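A microarray probe set is a group of short probes whose summed signal is read as the level of a transcript, and some probe sets carry the names of several genes. Of 49293 probe sets measured in LNCaP cells, 1832 were annotated to several genes, meaning that the platform annotation joined at least 2 gene entries for them, and these are described here. A further 44988 probe sets named 1 gene and 2473 named none. The cells (spelled LNCAP in the labels) are an established, androgen-responsive line of human prostate cancer. In 2 samples they had been treated with exosomes, small membrane vesicles released by cells, from PC-3, an androgen-independent prostate cancer line. The other 2 samples had been given PBS, the buffer control, and all 4 were kept in RPMI medium with fetal bovine serum. The sources used here give neither dose nor time of exposure. A cell line is a single lineage kept in culture, which limits it as a model of a tumour.

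Genes that arose by duplication keep long stretches of the same sequence, so a short probe can bind the RNA of each copy. The signal of such a probe set is then a sum that cannot be divided among the genes it names. A second source of shared probe sets is overlap on the chromosome, as when a read-through transcript joins neighbouring genes, or when a small RNA is cut from the transcript of a host gene. Processed pseudogenes, copies of an RNA written back into the genome, add a further kind, and they are common for ribosomal proteins and other abundant RNAs. In prostate cells such families include the AKR1C aldo-keto reductases, which convert steroid hormones, and the UGT enzymes, which attach glucuronic acid to steroids and other compounds.

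The bases before the starts of 2 gene pairs show how alike genes that share a probe set can be, and the mature microRNAs of 1 cluster show members that share a probe set because they lie in the same host transcript. AKR1C1 and AKR1C2 are shown because their shared probe set had the largest change. The windows are the 250 bases before each RefSeq start (build GRCh38.p14), at chr10:4963165-4963414 on the plus strand for AKR1C1 and chr10:5003858-5004107 on the minus strand for AKR1C2. Capitals mark ATTGG, the CCAAT box read on the other strand.
AKR1C1: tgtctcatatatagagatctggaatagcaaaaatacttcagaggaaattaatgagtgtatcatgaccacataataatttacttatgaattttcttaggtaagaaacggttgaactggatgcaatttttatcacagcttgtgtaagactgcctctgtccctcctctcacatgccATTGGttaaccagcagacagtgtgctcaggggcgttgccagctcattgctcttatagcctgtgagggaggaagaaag
AKR1C2: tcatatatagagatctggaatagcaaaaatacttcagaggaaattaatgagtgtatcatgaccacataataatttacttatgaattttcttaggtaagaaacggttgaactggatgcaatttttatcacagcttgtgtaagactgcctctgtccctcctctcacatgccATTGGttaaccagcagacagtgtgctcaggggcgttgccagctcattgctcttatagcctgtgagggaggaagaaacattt
Aligned, 245 of 246 bases were identical (99.6%). The CCAAT box lay 77 bases before the AKR1C1 start and 81 bases before that of AKR1C2. On either strand CCAAT stood in 33.0% of 27305 RefSeq windows of this length. The other motifs searched, on both strands, were TATAAA (11.1% of all windows), TGACNNNGC, the core of the antioxidant response element (11.0%), TTGCNNNA, of the C/EBP type (26.8%), and GGGANTTCC, of the NF-kB type (1.60%). None of these letters stood in the AKR1C1 or AKR1C2 window.

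MAGEA3 and MAGEA6 encode cancer-testis antigens and are shown as a pair with no difference at all. Their windows lie at chrX:152698544-152698793 on the plus strand and chrX:152769690-152769939 on the minus strand, and 250 of 250 bases were identical, so the sequence is printed once. Capitals mark CCAAT on either strand.
MAGEA3: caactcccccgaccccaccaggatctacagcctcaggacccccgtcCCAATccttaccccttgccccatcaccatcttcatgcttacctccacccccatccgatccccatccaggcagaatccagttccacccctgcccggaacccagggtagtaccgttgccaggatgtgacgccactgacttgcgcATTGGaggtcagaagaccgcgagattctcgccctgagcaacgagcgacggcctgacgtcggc
Of the motifs searched, this window held the CCAAT box 204 and 62 bases before the start and TTGCNNNA 190 bases before it. Windows could be compared for 391 pairs of genes that share a probe set, and in 83 pairs at least 90% of the 250 bases were identical. These were 54 of 150 pairs whose symbols share a stem, 19 of 100 read-through pairs, 5 of 22 pairs with a LOC symbol and 5 of 107 pairs with different stems. They were 0 of 11 antisense or long noncoding pairs and 0 of 1 small RNA host pair, by the kinds set out below. Read-through genes and other overlapping genes can share 1 start, so the same window can be counted for both. The 5 pairs with different stems were all overlapping genes, with 250 of 250 bases identical.

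The MIR17HG transcript on chromosome 13 carries the miR-17-92 cluster, and 3 probe sets were annotated to it together with MIR18A, MIR19A, MIR19B1, MIR20A and MIR92A1. The mature forms from RefSeq (GRCh38.p14) are printed to show that they differ although the probe sets do not tell them apart. Capitals mark the seed, bases 2 to 8, which pairs with target RNAs.
hsa-miR-18a-5p: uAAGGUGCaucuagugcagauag
hsa-miR-20a-5p: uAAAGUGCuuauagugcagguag
hsa-miR-19a-3p: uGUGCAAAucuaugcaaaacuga
hsa-miR-19b-3p: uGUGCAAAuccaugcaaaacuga
hsa-miR-92a-3p: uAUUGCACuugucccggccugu
The miR-19a-3p and miR-19b-3p forms share the seed GUGCAAA, and the other 3 have seeds of their own. A probe set to the host transcript reads its RNA and not the mature forms. On the probe set 11744964_a_at the intensities were 52.0 and 46.8 with exosomes, against 54.0 and 56.0 with PBS, which made the log2 fold change -0.15 (SE 0.092, adjusted p = 0.694). Both exosome arrays were the lower there. On the other 2 probe sets the groups overlapped, at log2 fold changes of -0.09 and -0.07. The host gene of miR-21, VMP1, a protein of autophagy, had 2 probe sets shared with MIR21. Their intensities were 1440 and 1476 with exosomes against 1391 and 1260 with PBS, and 346 and 334 against 300.5 and 264. The log2 fold changes were 0.14 (adjusted p = 0.570) and 0.27 (adjusted p = 0.384). Both exosome arrays were above both PBS arrays on each, as on 17.0% of all probe sets.

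The multi-gene probe sets carried 2330 different gene symbols in 1153 combinations. Of these symbols, 1473 were on no probe set of their own, and 1450 of the 1473 appeared only on probe sets that also name another gene. The other 23 were on a probe set that repeats their symbol alone. RefSeq lists 872 of the 1473 as protein coding and 289 as pseudogenes. Most of the probe sets, 1355, named 2 different symbols and 207 named 3. The probe set with the most entries, 11732967_x_at, listed 17 for the GAGE12 cancer-testis genes, some of them more than once. In 76 probe sets the annotation repeated 1 symbol, as in RPL37;RPL37, and 1756 had at least 2 different symbols. Affymetrix marks a probe set that matches several transcripts by its suffix. The suffix s was on 45.1% of the multi-gene probe sets and on 13.1% of all probe sets, and the suffix a on 22.9% against 46.7%.

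By the form of the symbols, 1028 probe sets named genes with a common stem, the usual mark of a gene family, and 71 of these only repeated 1 symbol. The 3 MIR17HG probe sets are among the 1028, because all their symbols start with MIR, although they share a host transcript. Read-through or overlapping-transcript names accounted for 315, symbols with different stems for 252 and LOC entries, gene models without a given name, for 119. Antisense or long noncoding RNAs accounted for 67 and small RNAs with their host for 51. Each probe set was counted once, under the first kind that held. The order was small RNA host, read-through, antisense or long noncoding, shared stem, LOC and different stems. An antisense name built on its partner's symbol, as WT1-AS beside WT1, therefore counted as read-through. By their order in RefSeq, the nearest genes of a probe set overlapped for 512, among them 312 of the 315 with read-through names, and lay within 1 Mb for 797. They lay farther apart on 1 chromosome for 234, on different chromosomes for 195 and could not be placed for 94, including all 76 that repeat a symbol. A pseudogene was among the genes of 422 probe sets (23.03%).

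The arrays were alike in level, with median intensities of 111.3 and 110.8 in the treated cells and 112.5 and 112.0 in the controls. The SD of the log2 difference was 0.130 and 0.144 between arrays of a group and 0.143 to 0.167 between arrays of different groups. The labelled cell type was checked on markers of luminal prostate cells. The 6 of 9 with a probe set of their own, KLK3, KLK2, TMPRSS2, STEAP2, HOXB13 and SLC45A3, had intensities of 475 to 14098, all above the median of all probe sets, and summed to 36762 and 37621 with exosomes against 36918 and 36954 with PBS. Of the 6 PC-3 and mesenchymal markers 3 were at or above the median level and none was called. Their sum was 5815 and 6140 against 4652 and 5271, most of it fibronectin (FN1). The extraction text in the labels speaks of brain cortex. Of 8 brain markers 7 were measured, 4 of them at or above the median level, with a sum of 1700 and 1702 against 1573 and 1640, and none was called. The part of these markers in the results below was not tested. RNA quality can be read from the 3′ to 5′ ratio of the beta-actin control, which was 6.82 and 5.39 on the exosome arrays, against 5.74 and 7.17 on the PBS arrays. The same ratio of the GAPDH control was lower, at 1.35 and 1.34 on the exosome arrays and 1.32 and 1.33 on the PBS arrays. In bulk samples fewer cells of a type and less RNA per cell cannot be told apart. The labels do not say that the 2 samples of a group were separate cultures, so the p-values measure only the spread between these samples, which may be technical.

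The multi-gene probe sets were measured at about the same level as the array as a whole, with a median intensity of 108.5 against 111.7 and a middle 50% between 36.4 and 432. Their median log2 fold change, exosomes minus PBS, was -0.02 against -0.01 over all probe sets. Of the members 90% lay between -0.19 and 0.18, and of all probe sets 90% lay between -0.18 and 0.18. At an adjusted p under 0.05, 6 multi-gene probe sets were higher with exosomes (0.328%), where the background over all probe sets was 108 (0.219%). None was lower, where the background was 6 (0.0122%). At an unadjusted p under 0.05, 84 were higher (4.59%, background 4.67%) and 87 lower (4.75%, background 4.15%). The 2 exosome arrays lay above both PBS arrays for 280 (15.3%, background 17.0%) and below both for 410 (22.4%, background 20.6%), so that the groups did not overlap for 690 (37.7%, background 37.6%). The shares without adjustment and without overlap are close to the background. Set to the scale of the poly-A spike-in controls, which were 0.14 higher on the log2 scale with exosomes, the medians were -0.16 for the members and -0.15 for all probe sets. On that scale 5 members were higher and 40 lower, against 134 and 836 of all probe sets. Each log2 fold change is lower by 0.14 on it, so values between 0 and 0.14 turn negative there. The directions and calls given below are those on the deposited scale unless the spike-in scale is named.

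The rises were on probe sets that name genes of steroid and aldehyde reduction (AKR1C1 and AKR1C2), the acute-phase response (SAA1 and SAA2) and complement (C4A and C4B). Others name genes of a ubiquitin ligase family (TRIM16) and of mitochondrial antioxidant defence (SOD2). A shared probe set does not by itself show which of its genes rose. The listed families held 5 of the 6, and SOD2 is outside them, among 1293 probe sets of no listed family. Each of the 6 probe sets had both exosome arrays above both PBS arrays (background 17.0%). A call makes such a separation likely, so it is no separate support. By kind, 4 of the 6 have a shared stem and 2 a hyphenated symbol built on another of the probe set's symbols. The calls rest on both arrays of each group. With each array left out in turn, the AKR1C probe set stayed past the threshold in 1 of 4 fits, without the first exosome array, and the other 5 in none of the 4, with the direction kept in every fit. The adjusted p was 0.0302 to 0.286 for AKR1C1 and AKR1C2 and 0.116 to 0.650 for the others. With the arrays of the same number as a block, none of the 6 was past the threshold, and without a trend in the variance model the AKR1C and SAA probe sets alone were.

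The largest rise was on the probe set 11754189_s_at of AKR1C1 and AKR1C2, enzymes that reduce steroids, among them progesterone and dihydrotestosterone. Its intensity was 225 and 255 after exosomes, against 74.0 and 69.5 after PBS. The log2 fold change was 1.72 (SE 0.093, adjusted p = 0.00189), and 1.63 to 1.81 with an array left out. The other 2 probe sets of the same genes had intensities of 17.4 to 34.7 on all arrays. On 11738244_s_at, at 17.4 to 21.7, the values lay near the median of the 23 background controls, 18.7 to 19.6. Its log2 fold change was -0.03. On 11761068_s_at, at 31.8 to 34.7, they lay above that median. The change there was 0.08 (adjusted p = 0.832), with both exosome arrays above both PBS arrays (background 17.0%). The same enzymes also had probe sets of their own, which were tested in the same fit. The AKR1C1 probe sets 11719171_a_at and 11719172_x_at rose by 1.35 and 1.47 (adjusted p = 0.00909 for both). Of the 3 AKR1C2 probe sets, 11729101_a_at rose, with 230 and 241 against 113 and 135 (log2 fold change 0.93, adjusted p = 0.0168). The others were at 0.60 (adjusted p = 0.106) and 0.08. Both genes therefore had a called probe set that names them alone. Whether the shared probe set changed more than the single-gene ones was not tested.

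The serum amyloid A genes encode acute-phase proteins carried on lipoproteins. The probe set 11756072_s_at of SAA1, SAA2 and their read-through SAA2-SAA4 was at 147 and 146 on the exosome arrays, against 66.6 and 68.7 on the PBS arrays. The log2 fold change was 1.10 (SE 0.081, adjusted p = 0.00588), and 1.08 to 1.13 with an array left out. A second probe set with the same symbols, 11758938_x_at, was at 54.3 and 78.1 against 51.8 and 39.5. Its exosome arrays were both the higher, but the spread was wider and it was not called (0.52, SE 0.185, adjusted p = 0.487). The probe set of SAA1 alone was at 48.1 and 44.8 against 31.4 and 38.7 (0.40, adjusted p = 0.355), and that of SAA2 alone at 0.02. The SAA2 probe set had intensities of 17.0 to 19.4, near the median of the background controls (18.7 to 19.6). The rise thus passed the test on 1 probe set only, a shared one.

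C4A and C4B encode the 2 forms of complement component C4, which lie beside each other in the HLA region of chromosome 6. C4B_2 is a further copy on an alternate sequence of the reference. No probe set named C4A or C4B alone. The probe set 11734747_a_at was at 214 and 242 with exosomes, against 125 and 129 with PBS, a change of 0.84 on the log2 scale (SE 0.087, adjusted p = 0.0164). The probe set 11754270_a_at was at 199 and 231 against 119 and 122, a change of 0.82 (SE 0.092, adjusted p = 0.0216). These are the only genes with 2 multi-gene probe sets past the threshold. With an array left out the changes were 0.75 to 0.93 and 0.72 to 0.93. The third probe set of the same genes was dim, at 26.7 to 28.6 on all arrays, with a change of -0.04. A probe set of C4A with WHR1, at 252 to 281, had a change of -0.06 (adjusted p = 0.889) and did not share the rise.

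TRIM16 is a member of the tripartite motif family with ubiquitin ligase activity, and TRIM16L is its shorter relative on the same chromosome. The probe set 11728668_x_at was at 1388 and 1433 in the treated cells and 1051 and 1048 in the controls. The log2 fold change was 0.43 (SE 0.050, adjusted p = 0.0261), and 0.40 to 0.45 with an array left out. The second probe set, 11749777_s_at, was at 426 and 469 against 374 and 332. Its groups did not overlap either, and at 0.34 (SE 0.083, adjusted p = 0.259) it was not called. SOD2 is the manganese superoxide dismutase of mitochondria, and SOD2-OT1 is an RNA from the same locus. The probe set 11725024_a_at was at 885 and 876 against 668 and 649, a change of 0.42 on the log2 scale (SE 0.054, adjusted p = 0.0390). On the spike-in scale it was 0.28 and no longer called (adjusted p = 0.0599). Of the 3 other SOD2 probe sets, 11748910_a_at was at 0.27 (adjusted p = 0.352) and 11758924_x_at at 0.23 (adjusted p = 0.377), both with groups that did not overlap (background 37.6%). The fourth was at 27.1 to 29.0 on all arrays, with a change of 0.01. Neither TRIM16, TRIM16L nor SOD2 had a probe set of its own.

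Symbol combinations carried by several probe sets show how far separate measurements of the same genes go together. There were 35 combinations on at least 5 probe sets, and 764 on 1 only. None of the sets named next was past the threshold, and they were chosen after their values were seen. The 6 probe sets of CBS, cystathionine beta-synthase, which makes cystathionine from homocysteine, shared with the gene model LOC102724560, were all above 0, at log2 fold changes of 0.14 to 0.34. In 5 of the 6 the exosome arrays were both the higher, where the background is 17.0%. Probe sets of the same genes can read the same RNA and are not independent, so these counts are descriptions. The one with the smallest p, 11744285_a_at, was at 1524 and 1683 after exosomes, against 1315 and 1222 after PBS (0.34, SE 0.065, adjusted p = 0.15). The single combination ULBP2, RAET1L and RAET1G, ligands of the NKG2D receptor of natural killer cells, had 3 probe sets, and ULBP2 with RAET1L had another. The 4 were at 0.24 to 0.37, all with both exosome arrays the higher (background 17.0%), and 11753308_s_at was at 188 and 200 against 149 and 151 (0.37, SE 0.077, adjusted p = 0.184). Probe sets of ULBP2, RAET1L and RAET1G alone were at 0.16, -0.02 and -0.02, at 0.18 and at -0.09.

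The prostate cancer markers AMACR and FOLH1 were measured mainly through shared probe sets. AMACR, alpha-methylacyl-CoA racemase, shared 6 with its read-through C1QTNF3-AMACR, and 5 of the 6 were above 0. The probe set 11733844_a_at was at 642 and 657 on the exosome arrays, against 528 and 550 on the PBS arrays (0.27, SE 0.059, adjusted p = 0.210). In 4 of the 6 the exosome arrays were both the higher (background 17.0%). Of the 2 probe sets of AMACR alone, 11753458_a_at was at 0.21, and 11762980_a_at was at 130 and 114 against 136 and 133 (-0.14), with both exosome arrays the lower. FOLH1, the prostate-specific membrane antigen, shared 5 probe sets with FOLH1B, at mean intensities of 3360 to 7870. Their log2 fold changes were 0.03 to 0.05, and the groups overlapped on all 5. The 7 probe sets of DDX39B, an RNA helicase of mRNA export, shared with the read-through ATP6V1G2-DDX39B, were all below 0, at -0.20 to -0.07, and the exosome arrays were both the lower in 4 of the 7 (background 20.6%). The 11 of the Rh blood group genes RHCE and RHD ranged from -0.22 to 0.05, with 2 whose exosome arrays were both the lower.

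The enzymes that attach glucuronic acid were another family of steroid and drug metabolism with several shared probe sets. The UGT1A genes share their last exons, so 8 probe sets named all 9 of them and a further one named 4. None was called. At an unadjusted p under 0.05, 4 were higher (background 4.67%) and 0 lower (background 4.15%). Over the 9 probe sets the median log2 fold change was 0.21, and 6 had both exosome arrays above both PBS arrays (background 17.0%). Another 2 had both below (background 20.6%), 11748219_a_at at -0.05 and 11760469_at at -0.16. The largest changes were on dim probe sets. On 11724282_a_at the intensities were 34.9 and 37.9 with exosomes, against 27.6 and 25.2 with PBS (0.45, SE 0.090, adjusted p = 0.165). The brightest, 11747457_x_at, was at 138 and 155 against 137 and 134 (0.11, adjusted p = 0.776). UGT2B15 and UGT2B17, which inactivate androgens, were at 406 and 401 against 370 and 378 on 11736649_x_at (0.11, adjusted p = 0.669). The 5 UGT2 probe sets ranged from -0.22 to 0.16.

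Cytosolic ribosomal proteins share probe sets with their processed pseudogenes, and these were among the brightest members. The 26 probe sets had a median intensity of 16188, and a pseudogene was named on 17 of them. Their log2 fold changes were all between -0.11 and 0.07, with a median of -0.01, and none was called. At an unadjusted p under 0.05 there were 0 (background 4.67% higher and 4.15% lower). RPL13A with RPL13AP5 was at 32056 and 30469 in the treated cells and 32177 and 31845 in the controls (-0.03, adjusted p = 0.819). The translation elongation factor EEF1A1 with its pseudogene and small nucleolar RNAs was at 29486 and 30786 against 30100 and 29317 (0.02). Values near the top of the range can be limited by saturation, which was not tested. A probe set annotated to HARS1, a histidyl-tRNA synthetase, and ATP13A5 was at 31672 and 32222 against 29445 and 29444 (0.12, SE 0.026, adjusted p = 0.218), with groups that did not overlap.

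Cancer-testis antigens, genes that are normally active in the germ line and in some tumours, were the largest listed family, with 44 probe sets. Of these 21 reached the median intensity and none was called. Without adjustment 3 were higher and 1 lower at p under 0.05 (background 4.67% and 4.15%). MAGEA3 with MAGEA6, whose sequence is printed above, was at 7394 and 7586 after exosomes, against 7969 and 7585 after PBS (-0.05, adjusted p = 0.758). The VCX genes on 11740413_x_at were at 513 and 502 against 426 and 427 (0.25, SE 0.059, adjusted p = 0.25), and the groups did not overlap. MAGED4 with MAGED4B was at 68.3 and 82.9 against 52.3 and 63.7 on 11742452_s_at (0.38, SE 0.131, adjusted p = 0.473). The median over the 2 probe sets of this pair was 0.16. The gamma T-cell receptor segments share a probe set with TARP, a transcript from that locus known from prostate epithelium. It was at 8322 and 8017 against 8264 and 8502 (-0.04, adjusted p = 0.838).

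No probe set of the chaperones, which fold other proteins, or of the histones was called. Heat shock protein genes HSPA1A and HSPA1B, a near-identical pair, shared 3 of the named probe sets, at log2 fold changes of 0.06, 0.06 and 0.02. The brightest was at 4194 and 4176 on the exosome arrays, against 4091 and 4152 on the PBS arrays (adjusted p = 0.925). HSP90AB1 with HSP90AB3P was at 5957 and 6117 against 6370 and 6198 (-0.06, adjusted p = 0.719). Of 12 histone probe sets none was called, although without adjustment 2 were higher and 1 lower at p under 0.05 (background 4.67% and 4.15%). In all, 3 were above 0 and 9 below, with a median log2 fold change of -0.08. The 2 of H2AC18 and H2AC19 were at 2945 and 2819 against 2646 and 2541 (0.15, adjusted p = 0.397) and at 3101 and 2811 against 2707 and 2541 (0.17, adjusted p = 0.475). The exosome arrays were above the PBS arrays on both (background 17.0%).

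No multi-gene probe set was called lower, and the members with the smallest p among the lower ones are given as values. They were chosen after their values were seen. DLEU2 with DLEU2L, a long RNA that hosts miR-15a and miR-16-1, was at 388 and 391 with exosomes, against 551 and 511 with PBS (-0.44, SE 0.065, adjusted p = 0.0616). A probe set of DLEU2 alone was at 379 and 407 against 554 and 487 (-0.40, adjusted p = 0.166), and the other 2 lay at 13.0 to 33.9 with changes of -0.05 and -0.01. The ovostatin pseudogenes OVOS2P and OVOS1P were at 31.0 and 35.2 against 68.7 and 49.97 (-0.81, SE 0.149, adjusted p = 0.128). PTTG1, the securin of mitosis, with PTTG3P was at 4393 and 4227 against 5083 and 4954 (-0.22, SE 0.041, adjusted p = 0.129). In each of these shared probe sets both exosome arrays were below both PBS arrays (background 20.6%), which choosing them by their p makes likely. At an adjusted p under 0.1, 1 multi-gene probe set was lower. On the spike-in scale, whose fit leaves the variance to the trend alone, the shared probe sets of DLEU2, OVOS2P with OVOS1P, and PTTG1 were called lower. Their adjusted p there was 3.7e-07, 3.7e-07 and 0.0141.

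Further families held probe sets on the lower side that did not pass the test. FAM72A to FAM72D were at 540 and 558 in the treated cells and 676 and 661 in the controls on 11735324_s_at (-0.28, adjusted p = 0.171). On 11736931_s_at they were at 298 and 327 against 396 and 359 (-0.27, adjusted p = 0.384). The alpha-tubulins TUBA1A and TUBA1B on 11744345_x_at were at 11595 and 11243 against 12446 and 13041 (-0.16, adjusted p = 0.242). HNRNPA1, a splicing regulator, with HNRNPA1P10 was at 11994 and 12043 against 13618 and 13220 on 11719462_x_at (-0.16, SE 0.032, adjusted p = 0.168). The motor neuron genes SMN1 and SMN2, needed to assemble small nuclear ribonucleoproteins, were at 3665 and 3677 against 3877 and 4549 (-0.19, adjusted p = 0.493). Both exosome arrays were the lower on each of these 5 probe sets (background 20.6%). They were named for a small p within their family, which makes this likely. The 2 probe sets of TUBA1A alone lay on the other side, at 0.26 and 0.14. On the spike-in scale both FAM72 probe sets (adjusted p = 0.000767 and 0.00508) and that of SMN1 and SMN2 (adjusted p = 0.0241) were called lower. The probe sets 11744345_x_at and 11719462_x_at were not.

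Several families of immune genes were mostly dim in these cells. At or above the median level were 0 of 13 defensin, 2 of 11 KIR and LILR and 1 of 11 chemokine probe sets. The same held for 6 of 30 immunoglobulin and 3 of 10 HLA probe sets. T-cell receptor segments had 4 of 8 at or above it, the brightest being the probe set shared with TARP. None of these probe sets was called. HLA-DRB genes, which present antigen on immune cells, were at 158 and 154 after exosomes, against 197 and 205 after PBS on 11744374_x_at (-0.36, SE 0.075, adjusted p = 0.178). The 13 defensin probe sets, for small antimicrobial peptides, were all below 0, with a median log2 fold change of -0.10 and intensities of 16.5 to 56.8. The 11 of the KIR and LILR receptors of leukocytes were also all below 0 (median -0.06), and in none of them did the groups separate (background 37.6%). Of the 30 immunoglobulin probe sets 12 were above 0 and 18 below (median -0.02), and of the 11 chemokine probe sets 3 and 8 (median -0.02). Both exosome arrays were the lower on 7 of 13 defensin, 4 of 10 HLA, 6 of 30 immunoglobulin and 1 of 11 chemokine probe sets (background 20.6%). Both were the higher on 0, 0, 3 and 1 (background 17.0%). Probe sets of 1 family can read the same RNA, so these counts are descriptions. At an unadjusted p under 0.05, 2 of 13 defensin, 1 of 30 immunoglobulin and 2 of 10 HLA probe sets were lower (background 4.15%). Another 1 immunoglobulin probe set was higher (background 4.67%). The metallothionein probe set of MT1JP, MT1M and MT1P3, zinc-binding proteins, was at 78.3 and 71.1 against 96.0 and 105 (-0.43, SE 0.095, adjusted p = 0.222).

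The large families of segmental duplications and receptors were centred near 0. Olfactory receptors had 40 probe sets (median log2 fold change -0.02), 17 above 0 and 23 below. The 35 of the zinc finger proteins (median -0.02) and the 32 of genes from the GTF2I region of chromosome 7 (median 0.00) were likewise on both sides. None of these 3 families had a probe set past the threshold. At an unadjusted p under 0.05 they had 0, 2 and 1 (background 4.67% higher and 4.15% lower). Cytochromes P450, the oxidases of drugs and steroids, had 13 of 14 probe sets below 0 (median -0.06). Both exosome arrays were the lower on 7 of the 14 (background 20.6%) and both the higher on 0 (background 17.0%). At an unadjusted p under 0.05 these enzymes had 0 (background 4.67% higher and 4.15% lower). CYP21A2 with its pseudogene was at 79.4 and 88.0 on the exosome arrays, against 91.6 and 97.1 on the PBS arrays (-0.17, adjusted p = 0.652). The probe sets with the most names were not called either. The GAGE12 probe set with 17 entries had a change of 0.01, at 7687 and 7351 on the exosome arrays and 7605 and 7331 on the PBS arrays. The 15-gene protocadherin alpha set, cell adhesion genes that share their last exons, was on 6 probe sets at -0.12 to 0.11.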

How the data were processed

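The values were taken as deposited by the authors: normalized intensities on a linear scale, 1 for each probe set and array, in 2 arrays with exosomes and 2 with PBS. MAS5 and RMA appear as tools in the submitters' processing notes, and what each did is not stated there. The array annotation came from the platform's table and gene order and names from RefSeq (GRCh38.p14), where 2314 of 2414 gene IDs matched. The genome build of the annotation is not given in the sources used here, so probe sets have no coordinates. The extraction text of the labels speaks of patient brain cortex, and groups were taken from the sample labels, which say LNCAP.

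All 49293 probe sets left after removing 102 AFFX controls were fitted with limma (lmFit and a trended eBayes; version 3.58.1, R 4.3.3) on log2 of the intensity plus 1, so a fold change is on that scale and understates the change of dim probe sets. P-values are two-sided and were adjusted by the Benjamini-Hochberg method over all probe sets, with a threshold of 0.05. The fit had 2 residual and 5.60 prior degrees of freedom, and the median SE was 0.083. The smallest p of an exact permutation test in this design is 0.333, so each p rests on the variance model. The small number of arrays limits the precision. On simulated data with 49293 probe sets the fit of this comparison recovered 0% of log2 changes of 0.25, 34% of those of 0.5, 94% of those of 1 and 100% of those of 2. Unchanged probe sets made up 4 of 118 calls. The simulated spread was drawn from the fitted variance model itself, so these shares do not show the error rate on the real arrays.

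The members, families and other lists were chosen with earlier results of these data known. A family is a set of symbols that match a written pattern. Named probe sets were those past the threshold (up to 12 rises and 12 falls whose groups do not overlap and whose brighter mean reaches the median of all probe sets). From each family they were up to 4 past the threshold, or else the 2 with the smallest p, and the brightest. The 5 with the most symbols and the 5 brightest were added, and others are said to be chosen after their values were seen. Levels are placed only by rank among all probe sets or against their median. Intensity also depends on the probes, so such ranks are not amounts of RNA, and no test sets a level against another. Sequences were aligned with Biopython 1.88, and tables handled with pandas 2.3.3 in Python 3.11.15. Alternatives were other scalings, a pseudocount of 16, a level filter, other eBayes settings and thresholds, a replicate block, 1 probe set for each combination of symbols, and each array left out.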

Additional observations from a re-analysis of the deposited data

How the results depend on the processing

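The counts of calls depended on the processing more than the fold changes did. The main values were 6 multi-gene probe sets higher and 0 lower, and 108 and 6 over all probe sets. Leaving out each array in turn gave 0 to 1 multi-gene probe set higher, 0 to 5 of all probe sets higher and 0 lower, where the lone array of a group is assumed to vary like the other group. With arrays of the same number as a block, 0 were higher and 0 lower in both sets. The labels do not say whether the numbers pair the arrays. Over the probe sets, the deviations of same-numbered arrays had a correlation of -0.08. With 2 arrays in each group this value cannot show whether they were paired. Without a trend in eBayes 2 multi-gene probe sets were higher, and 16 of all probe sets were higher and 0 lower. On the spike-in scale 40 multi-gene probe sets and 836 of all were lower, and the members' median was -0.16. The fit on that scale had an unlimited prior, which leaves the variance to the trend alone. Quantile normalization gave 187 higher and 29 lower over all probe sets and 1 lower among the members. Testing only probe sets at or above the median level gave 183 and 32, and again 1 lower member. At an adjusted p under 0.1 there were 197 and 28, with 1 lower member, and at an unadjusted p under 0.05 there were 2300 and 2044, with 84 and 87 members. The members' median was -0.0016 with array medians at 0 and -0.0073 at or above the median level. Leaving out the probe sets that repeat 1 symbol, an alternative chosen after seeing the data, gave 6 higher and 0 lower members. No value changed direction under these alternatives among those with a call. Over the 128 named probe sets, 1364 alternative values stayed on their side of the threshold or within the spread, 84 moved, 34 lost a call and 9 gained one. Dim probe sets near the background controls limit what can be seen, and changes of 0.25 were not called in simulated data.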

Other observations

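Outside the listed families, further probe sets with the groups apart are given here as values, and they were chosen after their values were seen. None was past the threshold. STBD1, a glycogen-binding protein, with its read-through FAM47E-STBD1 was at 199 and 176 on the exosome arrays and 142 and 138 on the PBS arrays (log2 fold change 0.42, SE 0.088, adjusted p = 0.187). The median over the 3 probe sets of this pair was 0.11. RCN1, a calcium-binding protein of the endoplasmic reticulum, with PAX6-AS1 was at 1822 and 1761 against 1526 and 1416 (0.28, adjusted p = 0.146), and the median over its 3 shared probe sets was 0.21. RAB43, a GTPase of vesicle transport, with ISY1-RAB43 was at 0.21 on 11757590_s_at (adjusted p = 0.298). The median over the 2 probe sets of this pair was only 0.05. On the lower side, HMGB1, an abundant chromatin protein, shared a probe set with CTCFL, which lies on another chromosome, and was at 8234 and 8046 against 9509 and 8929 (-0.18, adjusted p = 0.233). ST7 with ST7-OT3 was at 904 and 938 against 1078 and 1054 (-0.21, adjusted p = 0.285), and the median over its 4 shared probe sets was -0.13.

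Among combinations on many probe sets, RUNX1, a transcription factor of blood formation, with LOC100506403 had 8, of which 3 were above 0 and 5 below (-0.33 to 0.24). Its brightest, 11745150_x_at, was at 132 and 125 against 168 and 154 (-0.33, adjusted p = 0.313). The 6 of IGF2, a growth factor, with INS-IGF2 ranged from -0.34 to 0.14. The fetal globins HBG1 and HBG2 had 5, all dim at 11.1 to 20.8, and ranged from -0.05 to 0.06.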
